A study of Mus musculus with 7 samples.

Results

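The genes described here carry an annotation for adding phosphate groups to proteins or for taking them off. They were chosen from the deposited table of transcript clusters, the array's units of annotated transcripts, among the clusters classed as coding or as complex (both coding and non-coding transcripts). A gene was taken where at least 1 Gene Ontology process term held the words protein phosphorylation or protein dephosphorylation. Genes with any term on histones, ion transport, cell adhesion, angiogenesis, inflammation, immunity, DNA repair, meiosis or spermatogenesis were left out, and rows were joined by their first gene symbol. This gave 114 genes of the 3997 coding genes in the table, and 1 of them, *Gm14151*, had more than 1 row.

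RNA of testes from 3 adult wild-type and 4 adult *Ctcf*-cKO mice was measured, each mouse on its own array. The labels name the tissue as testes and the region as seminiferous tubules. *Ctcf*-cKO mice carried the *Stra8-iCre* transgene together with a floxed and a deleted *Ctcf* allele (*Stra8-iCre-Ctcf f/Δ*), and the wild-type mice were littermates with *Ctcf f/f*, *wt/f* or *wt/wt* genotypes. The background strain is written C56BL/6J in the methods. The study reports the loss of *Ctcf* from pre-leptotene spermatocytes onward. The *Stra8* promoter is active in these cells and also in spermatogonia. The study describes CTCF as still present in Sertoli, Leydig and spermatogonial cells of these mice. The table gives the authors' average of the log2 signal for each genotype and no value for a single mouse, so the spread between mice is not known, no difference was tested, and the small number of mice limits the precision of every value. It lists only clusters that passed a minimum difference between genotypes and a limit on the authors' p-value. The smallest absolute log2 difference of a row was 1.00. Nothing can be read from the table for genes that it does not list, and these can include genes with a larger difference that did not pass the other limit. *Ctcf* itself is among these, so the loss of its transcript could not be checked.

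Protein kinases transfer phosphate from ATP to serine, threonine or tyrosine residues, and protein phosphatases remove it, so the balance of both sets the activity of cell cycle, signalling and structural proteins. In the testis, checkpoint and polo-like kinases act in the dividing germ cells, while small kinase families such as the testis-specific serine kinases are made after meiosis and act in the shaping and movement of sperm. Receptor kinases, among them the receptor for anti-Müllerian hormone, carry signals in Sertoli, Leydig and other somatic cells.

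Of the 114 genes, 65 had a lower and 49 a higher average in *Ctcf*-cKO than in wild-type testes. The lower ones were 57.0% of the group. Of all coding genes in the deposited list, 61.3% were lower and 38.7% higher, so the share lay near this background and is no result about the kinase and phosphatase genes. The median log2 difference (*Ctcf*-cKO minus wild-type) was -1.32 for the lower genes, between averages whose medians were 9.33 in wild-type and 7.82 in *Ctcf*-cKO. For the higher genes it was 1.32, with median averages of 7.42 and 8.76. Over all coding genes the corresponding median differences were -1.29 and 1.33. In the class coding alone 34 genes were lower and 7 higher, or 82.9% lower, where 75.0% of all genes of that class were lower.

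**Figure D1:**
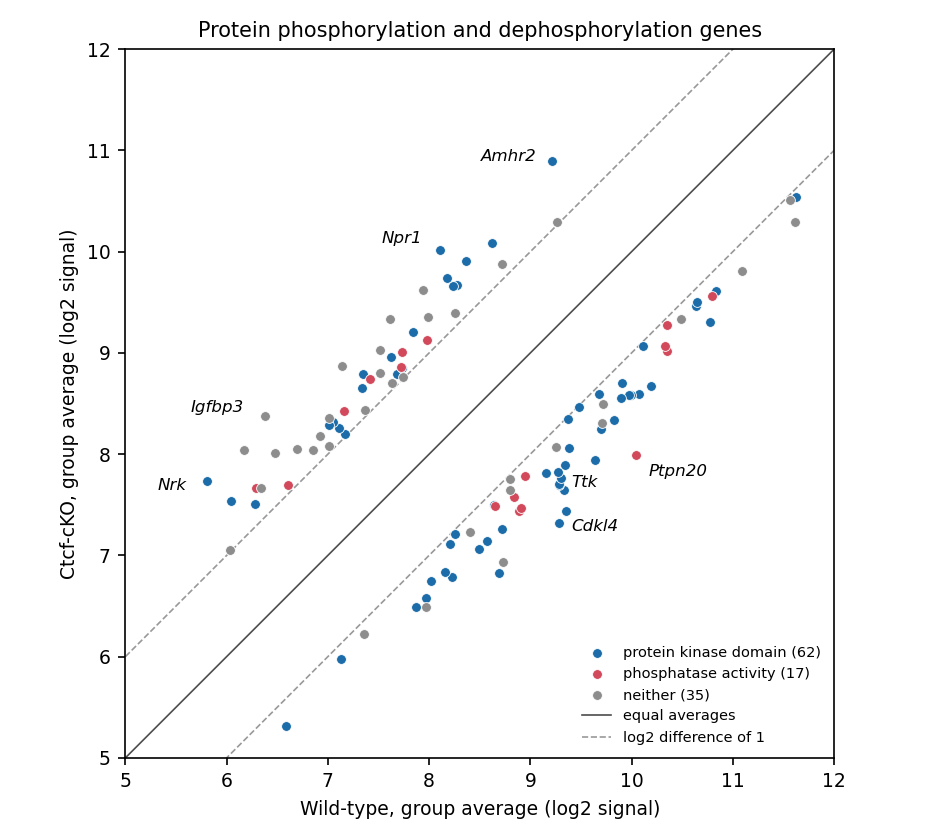
Group averages of the log2 signal in wild-type (horizontal axis) and *Ctcf*-cKO testes (vertical axis) for the 114 genes, 1 point per gene, coloured by annotation. The 65 lower genes lie below the line of equal averages and the 49 higher genes above it, and the empty band between the dashed lines is where the deposited table has no rows.

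Markers of testis cell types with a row differed in the same samples. The summed signals cover these markers alone, so each sum had to differ by at least the minimum difference of the table. The marker named as highest has the highest signal on its own probes, which is no rank by abundance. In bulk tissue, fewer cells of a type and less RNA per cell cannot be told apart. Of 6 Leydig cell markers, 5 had a row and all 5 were higher, with a summed linear signal of 5290 (wild-type) against 17900 (*Ctcf*-cKO), the highest being *Cyp17a1*, an enzyme of androgen synthesis, while *Insl3* had no row. Of 8 Sertoli cell markers, 6 had a row and were higher, the sum going from 3600 to 9090 with *Clu* as the highest, and *Amh* and *Rhox5* had no row. *Amhr2* counted both as a Sertoli cell marker and as a gene of the group described here. The markers of macrophages (3 of 5 with a row, 511 and 1270, *Mrc1* highest, no row for *Emr1* and *Cd163*), endothelial cells (2 of 5, 208 and 454, *Cdh5* highest, no row for *Pecam1*, *Tek* and *Vwf*) and peritubular myoid cells (3 of 5, 1210 and 3000, *Acta2* highest, no row for *Cnn1* and *Des*) were also higher.

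The germ cell markers went the other way after the spermatogonial stage. Of 6 markers of primary spermatocytes, 5 had a row and were lower, with summed signals of 4310 (wild-type) against 1780 (*Ctcf*-cKO), *Sycp2* highest and *Sycp3* without a row. All 6 round spermatid markers were lower, from 8150 to 3300, with *Tssk2* highest. *Tssk1* and *Tssk2* among them also stand on the list of germ cell kinases below, so marker and list are not separate evidence there. Of the 6 markers of elongating spermatids only *Akap4* had a row, at 2680 and 1320, and *Prm1*, *Prm2*, *Tnp1*, *Tnp2* and *Odf1* had none. *Akap4* is also counted below with the partners of protein kinase A. Among the spermatogonial markers only *Kit* had a row, higher at 224 and 1090, whereas *Dmrt1*, *Zbtb16*, *Gfra1*, *Uchl1* and *Sall4* had none, and *Kit* is also made by Leydig cells. The tissue label, testes, was thus met by markers of germ and somatic cells. Leydig cells lie outside the seminiferous tubules, so the markers do not bear out the region label as tubules alone. The part of these cell types in the differences of the kinase and phosphatase genes was not tested.

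The rule takes genes by process term, and not every gene it took has an annotated kinase or phosphatase domain or activity. By the annotation of the table, 62 of the 114 genes had a protein kinase domain and 17 others a phosphatase activity, whereas 35 had neither. Of the genes with a kinase domain, 42 were lower and 20 higher, or 67.7% lower beside the 61.3% of all coding genes. With those read by more than 30 probes alone, a cut chosen after the values were seen, 29 were lower and 20 higher (59.2%). Of those with a phosphatase activity, 10 were lower and 7 higher, and of the remaining genes 13 were lower and 22 higher. The remaining genes include binding partners, scaffolds and regulators, but also enzymes such as those of *Pdk4*, *Bckdk* and *Dusp11*, all higher, because the classes follow the wording of the annotation. Another 48 genes with a kinase domain had a row but were not chosen, 15 lower and 33 higher. Of these, 24 had an excluded term (14 lower, 10 higher). The other 24 had no process term at all in the deposited annotation, and 1 of them was lower and 23 higher. Well-studied kinases such as *Kit*, *Egfr*, *Igf1r*, *Cdk4* and *Jak2*, picked here as examples after their values were seen, could not be chosen because of this empty field. Over all 110 genes with a kinase domain, 57 were lower and 53 higher. No lean of the kinases in either direction is claimed from these counts. Of all 3997 coding genes, 773 (19.3%) had an empty process field, 515 lower and 258 higher.

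*Ptpn20*, a protein tyrosine phosphatase gene, had the largest lower difference. Wild-type testes had an average of 10.04 and *Ctcf*-cKO testes one of 7.99 (log2 difference -2.05). *Cdkl4*, a relative of the cyclin-dependent kinases, followed with 9.28 and 7.32 (-1.96). Predicted genes with a kinase domain came next, *Gm6327* (9.35 and 7.44, difference -1.91) and *Gm21759* (8.69 and 6.83, difference -1.86). *Cd109*, which encodes a membrane-anchored protein that binds transforming growth factor beta and is no kinase, had averages of 8.73 and 6.93 (-1.80). The other genes among the 8 with the largest lower differences were kinases: *Stkld1*, with a kinase-like domain (9.64 and 7.94, -1.70), *Dyrk4*, a dual-specificity kinase known from testis (9.33 and 7.65, -1.68), and *Ttk*, which encodes the spindle checkpoint kinase MPS1 (9.28 and 7.70, -1.58).

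The genes with the largest higher differences were of another kind, and 3 of the 6 named here had a kinase domain. *Igfbp3*, which encodes a secreted binding protein of insulin-like growth factors, had the largest, with 6.38 for wild-type against 8.38 for *Ctcf*-cKO (2.00). *Nrk*, a kinase of the STE20 family, had 5.81 and 7.73 (1.92). *Npr1*, the receptor for atrial natriuretic peptide, whose kinase-like domain regulates its guanylyl cyclase, had 8.11 and 10.02 (1.91). *Clip3*, a microtubule-binding linker, had 7.14 and 8.87 (1.73). *Amhr2*, the receptor kinase for anti-Müllerian hormone, had 9.21 and 10.90 (1.69), and *Nrbp2*, a kinase-like protein thought to lack activity, had 7.94 and 9.62 (1.68).

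Signals of different clusters rest on different probes and do not rank transcripts by abundance. The highest wild-type averages of the group, close to each other, were those of *Gm14151* (11.62), *Stat4* (11.61) and *Ropn1l* (11.57). *Stat4* encodes a transcription factor that kinases phosphorylate, and ROPN1L is a protein of the sperm tail. Their averages in *Ctcf*-cKO were 10.54, 10.29 and 10.51. The highest average in *Ctcf*-cKO was that of *Amhr2*, at 10.90, and those of *Gm14151* and *Ropn1l* were the next, with differences too small to order them.

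Lists of kinases and phosphatases by family were used to place these genes among their relatives, with 694 genes on 19 lists. A row was present for 148 of these genes, of which 74 were lower and 74 higher, and 67 of the 114 genes stood on a list. The counts by family are set out below by role. They rest on few genes each, no difference between families was tested, and the background to hold them against is the 61.3% lower of all coding genes.

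All 19 lists, and that of germ cell kinases above all, were put together with earlier results of these data known, so their directions are not independent evidence. Of the 28 germ cell kinases, 20 had a row and all 20 were lower, with a median log2 difference of -1.28, and 13 of them belonged to the group chosen by the rule. *Stk33* had averages of 10.77 and 9.31 (-1.46) and *Stk31*, a germ cell kinase with a Tudor domain, 9.27 and 7.82 (-1.45). *Mak*, the male germ cell-associated kinase, had 10.83 and 9.61 (-1.22), and its relative *Mok* 9.97 and 8.58 (-1.39). *Grk4*, a kinase of G protein-coupled receptors, had 9.28 and 7.71 (-1.57), and the tau tubulin kinase *Ttbk2*, which acts at the base of cilia, 10.64 and 9.46 (-1.18). The testis-specific serine kinases carry the term spermatogenesis and so were not chosen by the rule: *Tssk1*, *Tssk2*, *Tssk3*, *Tssk4* and *Tssk6* had differences of -1.47, -1.38, -1.21, -1.18 and -1.03, and *Tssk5* had no row.

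Kinases of cell division were mostly lower. Of 29 listed cell cycle kinases, 9 had a row, 8 of them lower. Among the genes of the rule these were the spindle checkpoint genes *Ttk*, *Bub1* (9.30 and 7.76, -1.54) and *Bub1b* (8.80 and 7.65, -1.15), and *Plk4* (8.64 and 7.50, -1.14), which controls the duplication of centrioles. *Aurka*, *Plk1*, *Pbk* and *Gsg2*, which encodes the histone kinase haspin, were lower as well, outside the rule. *Cdk4*, the partner of D-type cyclins and also outside the rule, was higher, at 8.09 and 9.26 (1.17). *Cdk1*, *Cdk2*, *Aurkb*, *Aurkc* and *Chek1* were among the 20 listed genes with no row. Of 32 cyclins and inhibitors of cyclin-dependent kinases, 7 had a row. *Ccna1*, the germ cell cyclin A, had the largest lower difference among them (10.16 and 8.46, -1.70), and *Cdkn3*, which encodes a phosphatase that acts on cyclin-dependent kinases and was chosen by the rule, had 10.79 and 9.56 (-1.23). *Ccnd2*, a D-type cyclin chosen by the rule, was higher at 6.69 and 8.05 (1.36).

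The NIMA-related kinases, known from mitosis and from cilia, showed both directions: of 11 genes 5 had a row, and 4 of them were lower. *Nek11* had averages of 8.49 and 7.06 (-1.43), *Nek10* 7.13 and 5.98 (-1.15) and *Nek4* 9.48 and 8.47 (-1.01). *Nek2*, outside the rule, was lower too. *Nek7*, which is widely made, was the higher one at 7.35 and 8.79 (1.44).

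Cyclin-dependent kinase-like genes stood together. *Cdkl1* (8.23 and 6.79, -1.44), *Cdkl2* (9.34 and 7.89, -1.45), *Cdkl3* (10.11 and 9.07, -1.04) and *Cdkl4* were all lower. In the same list, which holds 35 genes with 9 rows, *Dyrk3* was lower (9.90 and 8.55, -1.35). *Clk1*, a kinase of splicing factors, was higher (7.73 and 8.85, 1.12), as were *Cdk15* (6.28 and 7.51, 1.23) and, outside the rule, *Cdk5* and *Hipk2*.

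The receptor kinases with a row were nearly all higher. Of 58 receptor tyrosine kinases 14 had a row, none of them chosen by the rule, and 13 of them were higher with a median over the 14 of 1.47. The differences were 2.28 for *Kit*, 2.20 for *Pdgfra* and 2.04 for *Igf1r*, and the exception was *Epha7* (6.87 and 5.81, -1.06). *Kdr* and *Csf1r* on this list are also the markers of endothelial cells and macrophages named above, and *Kit* is that of spermatogonia. Of the 12 receptor kinases of the transforming growth factor beta family, *Amhr2*, *Acvr1* and *Bmpr2* had a row and were higher. Behind the receptors, the cytoplasmic tyrosine kinases with a row were *Jak1* (8.36 and 9.91, 1.55), which serves cytokine receptors, *Jak2* (1.56) and *Fyn* (1.58), 3 of 32 listed, all of them higher.

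The lists of kinases of intracellular signalling had few genes with a row, and these were mostly higher. In the MAP kinase cascades 6 of 53 genes had a row, and none of the MAP kinases themselves. *Map2k4*, an activator of the JNK kinases, had averages of 7.34 and 8.65 (1.31), and *Map3k1*, which acts upstream of it, 7.68 and 8.79 (1.11). Of the ribosomal S6 kinases, *Rps6ka3* (7.01 and 8.29, 1.28) and, outside the rule, *Rps6ka2* (1.78) were higher and *Rps6ka6* was lower (8.02 and 6.75, -1.27). In the STE20 family, 4 of 28 genes had a row and all 4 were higher, among them *Map4k4* (8.24 and 9.66, 1.42) and *Stk24* (8.28 and 9.67, 1.39). Of 48 genes on the list of AGC kinases 5 had a row, 1 lower and 4 higher. *Cdc42bpb*, a kinase of the actin cytoskeleton, was higher (8.62 and 10.09, 1.47). *Adrbk2*, now named *Grk3*, whose product phosphorylates G protein-coupled receptors, was lower (8.26 and 7.21, -1.05). Its relative *Grk4*, also lower (-1.57), was counted with the germ cell kinases and is not in this tally.

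On the list of calcium/calmodulin-related kinases 5 of 46 genes had a row, and all 5 were higher. *Camk4*, a calcium/calmodulin-dependent kinase counted with the germ cell kinases instead and outside the rule, was lower (8.15 and 6.99, -1.16). Other kinases kept on that list, such as *Stk33*, *Pask* and the testis-specific serine kinases, were lower and are not in this tally either. That all genes with a row were higher here thus depends on how genes were assigned to the lists. *Mark4*, which phosphorylates microtubule-associated proteins, had averages of 8.18 and 9.74 (1.56), *Cask*, a scaffold with a kinase domain, 6.04 and 7.54 (1.50), and *Camkk2*, an activator of AMP-activated kinase, 7.84 and 9.21 (1.37). Among the other serine/threonine kinases, 13 of 69 had a row, 3 lower and 10 higher, again without those counted with the germ cell kinases. The mitochondrial kinases *Pdk4* (6.34 and 7.67, 1.33) and *Bckdk* (6.92 and 8.18, 1.26), which switch off the dehydrogenases of pyruvate and branched-chain keto acids, belong to the higher ones. So does *Pkdcc*, a secreted tyrosine kinase (7.62 and 8.96, 1.34), while *Stk35* was lower (9.37 and 8.35, -1.02).

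Protein kinase A was represented by its partners only, since none of its listed catalytic or regulatory subunits had a row. Of 23 listed genes 5 had one, 4 lower and 1 higher. *Akap13*, an anchoring protein, was chosen by the rule and was higher (7.37 and 8.44, 1.07). The anchoring proteins of the sperm tail, *Akap3* (-1.29) and *Akap4* (-1.02), were lower, outside the rule.

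**Figure D2:**
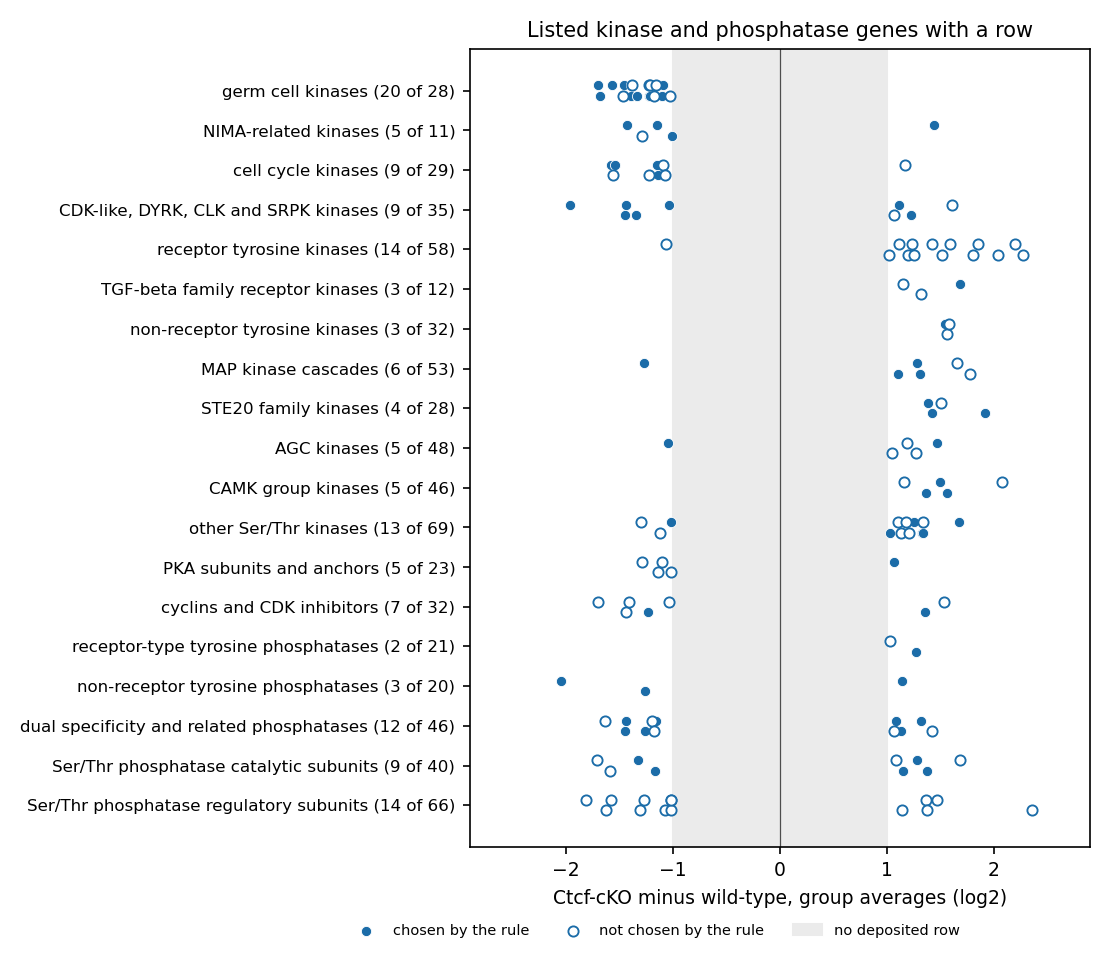
Log2 difference of group averages (*Ctcf*-cKO minus wild-type, horizontal axis) of each gene with a row, by gene list, with the genes with a row of those listed in parentheses; filled points are genes chosen by the rule. All 20 germ cell kinases with a row lie on the lower side and 13 of 14 receptor tyrosine kinases on the higher side, while the shaded band holds no rows of the table.

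Tyrosine phosphatases also showed both directions. Of the non-receptor type, 3 of 20 listed genes had a row and all 3 were chosen by the rule: *Ptpn20*, *Ptpdc1*, a phosphatase linked to cilia (10.33 and 9.07, -1.26), and the large scaffold-like *Ptpn13* (7.72 and 8.86, 1.14). Receptor-type phosphatases had a row for 2 of 21 genes, *Ptpre* (7.16 and 8.43, 1.27) and, outside the rule, *Ptprk* (1.03), both higher.

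Among dual specificity phosphatases and their relatives 12 of 46 genes had a row, 7 lower and 5 higher. *Styxl1*, whose product is a catalytically inactive relative, had averages of 8.89 and 7.44 (-1.45). *Dusp21*, located in mitochondria, had 8.91 and 7.47 (-1.44), and the related *Dusp18* 8.84 and 7.58 (-1.26). *Cdc14a*, a phosphatase of the centrosome, was lower at 8.65 and 7.49 (-1.16). The higher genes chosen by the rule were *Ssh1*, which activates cofilin (7.42 and 8.74, 1.32), *Dusp11*, an RNA phosphatase (8.26 and 9.39, 1.13), and *Dusp6*, which inactivates ERK kinases (6.61 and 7.70, 1.09).

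Serine/threonine phosphatases had 9 of 40 catalytic subunits with a row, 4 lower and 5 higher. *Phlpp1*, which acts on AKT, was lower (10.35 and 9.02, -1.33), as was *Ppm1j* (8.95 and 7.78, -1.17). *Ppm1k*, the mitochondrial phosphatase that opposes BCKDK, was higher at 6.29 and 7.67 (1.38), in the same direction as *Bckdk* itself. *Ctdsp1* (7.73 and 9.01, 1.28) and *Ppm1m* (7.98 and 9.13, 1.15) were higher too. None of the 14 regulatory subunits with a row, of 66 listed, was chosen by the rule. Of these, 9 were lower, among them *Ppp3r2* (-1.63), the calcineurin B subunit of testis, and 5 higher, with *Ppp1r14a*, an inhibitor of myosin phosphatase in smooth muscle, at 2.36.

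A further 47 of the 114 genes stood on no list, 28 lower and 19 higher. Among the 114 genes, 17 lower genes (26.2%) and no higher gene had a name beginning with Gm or ending in Rik, where 43.5% of all lower and 7.11% of all higher coding genes had such a name. In RefSeq, 8 of the lower genes (12.3%, beside 4.69% of all lower coding genes) are pseudogenes or transcribed pseudogenes and 2 (3.08%, beside 3.02%) are long non-coding RNAs, although the array's annotation gave them a phosphorylation term. Among the higher genes, 48 of 49 matched a protein-coding gene of RefSeq and the other had no match.

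Several of these predicted genes lie close together on chromosome 17, a set singled out after their values were seen. Chromosome 17 held 11 of the 65 lower genes (16.9%), against 3.96% of all lower coding genes of the table. *Gm6811* lies at chr17:21093172-21094704 (mm10, plus strand), *4930488N24Rik* at chr17:21129351-21130877, *Gm7736* at chr17:21152562-21154088 and *Gm7742* at chr17:21198952-21200478, all on the plus strand, and *Gm7052* at chr17:22039028-22040539 on the minus strand. Each was read by 30 probes. Their wild-type averages were 8.72, 9.83, 10.07, 9.70 and 8.57, and their averages in *Ctcf*-cKO 7.26, 8.34, 8.59, 8.25 and 7.14. The differences, from -1.49 to -1.43, were close to each other. *4930488N24Rik*, *Gm7736* and *Gm7742* span 1527 bases each, and the RefSeq gene named *4930488N24Rik* does not overlap the place given here. Copies of 1 sequence may share probes, which was not checked, so their values are not separate measurements with certainty.

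Farther towards the centromere on the same chromosome lie the sperm motility kinase gene *Smok2a* (7.97 and 6.58, -1.39) and *Smok4a* (8.21 and 7.11, -1.10), which RefSeq calls a transcribed pseudogene, with *Gm7168* (6.59 and 5.31, -1.28). These too belong to a family of similar copies and carry the same uncertainty. So does *Gm14151*, whose rows of opposite strands on chromosome 2 had differences of -1.07 and -1.09. Among the 65 lower genes, 14 (21.5%) were read by 30 or fewer probes, and none of the higher ones. Over all coding genes this was 25.7% of the lower and 8.47% of the higher genes. Without the 14 genes, 51 lower genes were left beside the 49 higher ones.

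**Figure D3:**
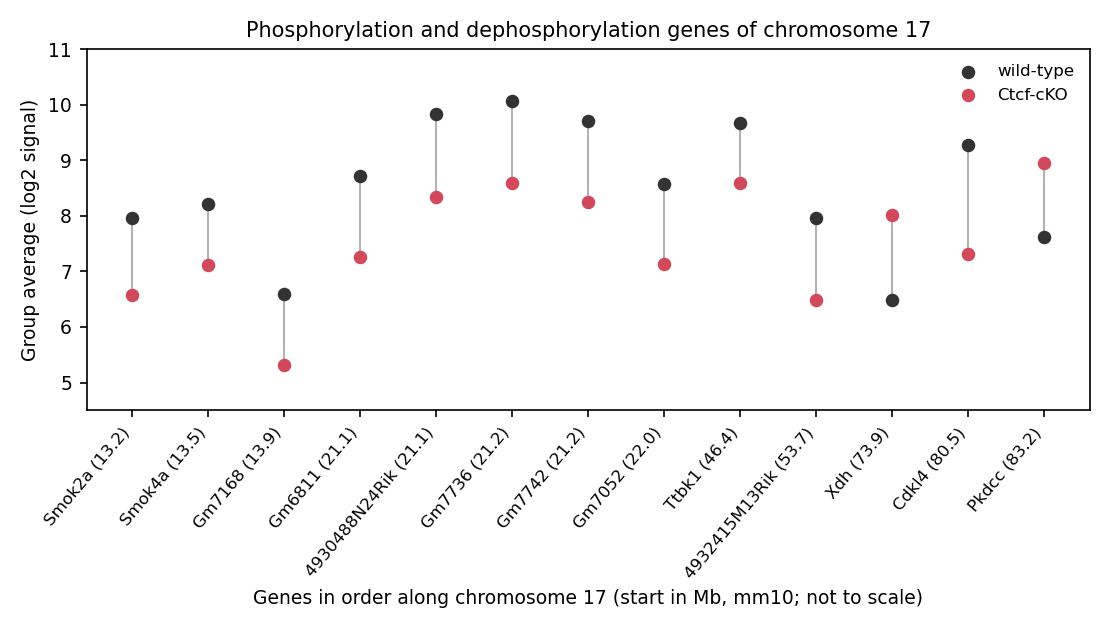
Group averages of the log2 signal in wild-type (black) and *Ctcf*-cKO testes (red) for the genes of the rule on chromosome 17, in their order along the chromosome. The 11 lower genes, among them 8 kinase-like genes between *Smok2a* and *Gm7052*, stand beside 2 higher ones, *Xdh* and *Pkdcc*.

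Some features that the rule did not use are given for the lower and the higher genes, beside all coding genes of the table. The expressed sequence tags summarised in the table's UniGene field named testis for 49 of the 53 lower genes with an entry (92.5%) and for 40 of 49 higher genes (81.6%), near the 94.6% and 80.4% of all lower and higher coding genes. The breadth of that field differed more. A lower kinase or phosphatase gene had a median of 17 entries for tissues and stages, against 5 for all lower coding genes, while the higher genes had 32 against 31. Every gene chosen has process terms, whereas all coding genes include the 773 with an empty process field. The part of the empty fields in the difference in breadth was not tested, and the difference is not read as a result about the genes chosen.

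The shares by cellular component carry the same limit: every gene chosen has process terms, whereas the coding genes beside them include the 773 with an empty process field. The part of the empty fields was not tested here either, and a higher share among the genes chosen is not read as a result about them. Terms with the word cilium were found for 6 lower genes, *Adrbk2*, *Mak*, *Ptpdc1*, *Ropn1l*, *Tsga10* and *Ttbk2*, and for no higher gene. These were 9.23% of the lower genes, beside 4.00% of all lower coding genes, and such terms stood at 0.646% of all higher coding genes. Terms with cytoskeleton were found for 5 lower genes (7.69%, beside 6.04%) and 8 higher genes (16.3%, beside 5.49%), and terms with nucleus for 26 of the 65 lower genes (beside 17.7%) and 21 higher genes (42.9%, beside 26.6%). Those with plasma membrane stood at 3 lower genes (4.62%, beside 6.08%) and 8 higher genes (16.3%, beside 22.6%). Terms with the syllables mitochond stood at 2 lower genes, *Dusp18* and *Dusp21*, and 5 higher genes, *Bckdk*, *Ern1*, *Pdk4*, *Ppm1k* and *Sesn2*. These were 3.08% and 10.2%, near the 2.98% and 13.2% of all lower and all higher coding genes. No gene of the group lay on chromosome Y, where 12.2% of all lower coding genes were found.

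RefSeq promoters (build GRCm38.p6), reaching from 250 bases before to 50 bases after the gene start, could be matched by symbol and place for 79 of the 114 genes, or 69.3%. This is below 80%, so a comparison of base composition or motif shares between lower and higher genes would be void and is not given. Single matches are shown as descriptions. The letters TGACGTCA, the cyclic AMP response element bound by CREB and CREM, read the same on both strands and occur in 1.88% of all promoters of this length. Both directions were represented among the genes of the rule with a match: *Styxl1* and *Senp2* (10.49 and 9.34, -1.15), which encodes a SUMO protease and is named for its match, were lower, and *Jak1* and *Tbck* (7.17 and 8.20, 1.03) were higher. The stretches around the match are given 5′ to 3′ on the strand of the gene, with the element in capitals, from chr5:135778482-135778569 (minus strand), chr16:22009369-22009456 (plus strand), chr4:101265277-101265364 (minus strand) and chr3:132684084-132684143 (plus strand), in this order. All lie before the RefSeq gene start.
Styxl1: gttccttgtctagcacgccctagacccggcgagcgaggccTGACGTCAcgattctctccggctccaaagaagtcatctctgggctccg
Senp2: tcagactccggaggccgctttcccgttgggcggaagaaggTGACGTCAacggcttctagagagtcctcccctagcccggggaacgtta
Jak1: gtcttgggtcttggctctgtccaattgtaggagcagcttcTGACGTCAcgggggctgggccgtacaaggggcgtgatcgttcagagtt
Tbck: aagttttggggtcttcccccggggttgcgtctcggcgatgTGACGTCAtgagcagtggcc

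For *Amhr2* a promoter match to CAAGGTCA is shown, letters bound by the steroidogenic factor NR5A1. With both strands searched, 1.53% of all promoters hold it. The match begins 232 bases before the gene start. It stands in capitals within the stretch shown, which lies at chr15:102445117-102445182 (GRCm38.p6, plus strand). The CTCF core motif was found in 0.551% of all promoters and in none of the 79 of this group, which says only that these letters were not in the windows searched.
Amhr2: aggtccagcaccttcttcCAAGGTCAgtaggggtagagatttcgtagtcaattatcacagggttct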

How the data were processed

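RNA of testes from 3 wild-type and 4 *Ctcf*-cKO mice was hybridized to mouse transcriptome arrays. According to the submitters' processing notes, the authors used Affymetrix Expression Console 1.4.1, RMA, Transcriptome Analysis Console 3.0 and the build mm10. The deposited table of 7580 transcript clusters is written with decimal commas and holds, on the log2 scale, the authors' bi-weight average of each genotype. Its columns of linear fold change, ANOVA p-value and adjusted p-value were not used. It has 0 columns of single-array values, so no test between genotypes and no check of single arrays could be run; depth is not defined for arrays.

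The number of probes and the other annotation were read as deposited. The log2 difference was computed as *Ctcf*-cKO minus wild-type. Rows of a gene were averaged (4084 coding rows, 115 of them of the genes chosen). Summed marker signals are sums of 2 to the power of the averages. Named are the 8 lower genes with the largest difference, 6 of the 8 such higher genes, the 3 highest averages of each genotype, and genes with a row on the 19 lists; other genes are named with their feature. The genes and lists were chosen with earlier results of these data known. RefSeq genes were matched by symbol or unique synonym (112 of 114), at an overlapping place for 110. Motifs were searched on both strands in the first listed promoter of 27025 symbols. The gene ontology fields of function and component are also empty for some genes, which are then counted as lacking the term. Alternatives changed the terms, classes, symbols, level, fold, centring, rows, gene kind and probes. Python 3.11.15, pandas 2.3.3, numpy 2.4.6, matplotlib 3.10.9 and scipy 1.17.1 were used, and 5 functions were tested on simulated data.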

Additional observations from a re-analysis of the deposited data

How the results depend on the processing

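The counts (65 lower, 49 higher, 57.0% lower) and medians (-1.32 and 1.32) were computed again with 8 other choices, and the counts and share, without the medians, with 3 more that were chosen after seeing the data. With a log2 average of at least 6, or the row with the largest absolute difference, all values were as before. Exact terms gave medians of -1.35 and 1.33, no excluded terms -1.29 and 1.34, and every symbol of a row -1.33 and 1.31. The class coding alone gave 34 lower and 7 higher genes (82.9% lower), medians -1.33 and 1.27. A linear fold of 3 left 7 lower and 8 higher (46.7%), medians -1.86 and 1.80, by its construction. Subtracting the median difference of the whole table, -1.15, gave 46.5% lower with medians -0.24 and 2.42, and 12 genes took the opposite sign; the table holds no rows between the minimum differences, so its median is not that of all genes on the array. The added kinase domain setting gave 42 lower and 20 higher (67.7%), more than 30 probes 51.0% lower, and both together 29 lower and 20 higher (59.2%).

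No paired analysis was possible because the table read here holds averages of each genotype alone. Leaving out each mouse in turn was not run either. Signal over background and the spread between mice are not given in the table, so small differences between genes in these values cannot be ranked. Genes without a row, 773 coding genes with an empty process field, similar gene copies and old symbols limit what the counts cover.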

Other observations

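Non-coding clusters of the table that overlap the kinase and phosphatase genes gave a further set of values. There were 24 such clusters at 16 genes, 19 inside the gene, 2 that contain it and 3 that overlap it in part. On the same strand as the gene, 20 clusters at 12 genes all had the direction of the gene, 18 of them at 10 higher genes. For all coding genes 99.5% of the same-strand clusters had the direction of the gene, so this is no trait of the kinase and phosphatase genes. *Mark4* was higher by 1.56 and a cluster inside it by 1.57, with averages of 8.50 and 10.07. Whether such clusters are read from the transcript of the gene itself was not tested.

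On the opposite strand there were 4 clusters, and 3 of them (75.0%, beside 79.2% for all coding genes) shared the direction of the gene. At *Stk35* a cluster of the opposite strand had 8.17 for wild-type against 6.56 for *Ctcf*-cKO (log2 difference -1.61), beside -1.02 for *Stk35*. The exception was *Ppm1k*, the mitochondrial phosphatase gene, which was higher by 1.38, whereas the cluster of the opposite strand at chr6:57476364-57514311 (mm10, plus strand) had averages of 8.38 and 7.01, a difference of -1.37. These genes were chosen after their values were seen.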
